A study of Mus musculus with 8 samples.

Results

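The SoxF group of transcription factors comprises Sox7, Sox17 and Sox18, and all 3 members were found by gene symbol in a table of 34536 symbols, where 13817 genes had enough counts to be tested, the 3 members among them. The members were taken as a gene family, and earlier results of these data were known when they were chosen. The RNA was from mouse cells taken by fluorescence-activated sorting from embryoid bodies, which are clumps of differentiating stem cells. Libraries A, C, E and G (n = 4) are labelled endocardial and B, D, F and H (n = 4) endothelial, and the labels name no treatment, genotype, strain, culture day or sort marker. Endocardial cells are the endothelium of the heart chambers. Nothing in the labels says that libraries of a group came from separate cultures, so each p-value speaks to the spread among these 8 samples alone, and that spread may be technical.

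SoxF proteins bind DNA through an HMG box and, in their C-terminal part, carry a transactivation domain that can contact beta-catenin. In vessels the members act in part redundantly in endothelial identity, lumen formation and artery-vein patterning. Outside vessels, Sox17 is a regulator of definitive endoderm, and Sox7 is active in extraembryonic endoderm. Sox18 acts upstream of Prox1 when lymphatic endothelium forms.

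The members lie on different chromosomes in mouse build GRCm38. Sox7 is on chromosome 14 (63943673 to 63950732, plus strand) and Sox17 on chromosome 1 (4490931 to 4497354, minus strand). Sox18 is on chromosome 2 (181669836 to 181671640, minus strand). Sox7 and Sox18 have 1 annotated transcript each, of 3299 and 1620 bases, and Sox17 has 8, of which 4 are complete coding transcripts of 1512 to 3242 bases. The table holds 1 value per gene, so the Sox17 transcripts were not told apart. Gm37587, a noncoding gene on the opposite strand, overlaps Sox17 and has no row of its own. The library kit keeps strand, but whether the counting used it is not given in the sources used here.

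How near the members' transcripts come to each other was read from their sequences. The longest exact run shared by a pair of the members' main coding transcripts was 29 bases, between Sox17 and Sox18. It was 22 bases for Sox7 and Sox17 and 20 bases for Sox7 and Sox18. No run of 31 bases occurs in the annotated transcripts of more than 1 member.

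Library totals ran from 6677667 to 11369363 estimated counts, and a count of 3 was worth 0.267 to 0.438 CPM (counts scaled to the library total). The defining endothelial genes Pecam1 and Cdh5 were present in every library of both groups. Pecam1 was at 157 ± 5.14 CPM (SD, n = 4) where sorted as endocardial and 88.6 ± 14.1 CPM (SD, n = 4) where sorted as endothelial. Cdh5 differed more, at 132 ± 17.3 CPM (SD, n = 4) in the endocardial and 16.1 ± 1.11 CPM (SD, n = 4) in the endothelial libraries. Libraries differed in markers of other cells, and these levels are given beside the results they move with.

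All 3 members were higher in the endocardial libraries, and for each member every endocardial library lay above every endothelial one. Of all tested genes, 2.58% were called in either direction, 1.42% were called higher, and 4.42% had endocardial libraries all above the endothelial ones. Calls are from edgeR's quasi-likelihood test across all tested genes at a Benjamini-Hochberg adjusted p below 0.05. Sox7 had the largest difference of the 3, Sox18 an intermediate one and Sox17 the smallest. Differences between the members are tested further on.

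Sox7, which acts early in vascular development, was at 18.5 CPM in endocardial library A, 28.1 in C, 35.5 in E and 38.2 in G. In the endothelial libraries it was at 2.59 CPM in B, 6.86 in D, 2.50 in F and 4.42 in H. The groups did not overlap, and A, the lowest endocardial library, was 2.69 times D, the highest endothelial one. The means were 30.0 ± 8.83 and 4.09 ± 2.05 CPM (SD, n = 4 each). The fitted log2 fold change was 2.91 (SE 0.35, edgeR adjusted p = 0.00236), a 7.50-fold difference with a range of 5.88 to 9.57 over 1 SE. By size of the log2 fold change Sox7 ranked 9 among all tested genes.

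Sox17, a factor of arterial and hemogenic endothelium, was at 9.68 CPM in A, 6.91 in C, 14.4 in E and 8.23 in G. The endothelial values were 2.85 CPM in B, 3.36 in D, 2.71 in F and 2.03 in H. E stood highest, and the endothelial libraries lay close together. The means were 9.81 ± 3.27 and 2.74 ± 0.547 CPM (SD, n = 4 each), with a log2 fold change of 1.84 (SE 0.29, edgeR adjusted p = 0.0109), which is 3.58-fold. Only 17 to 32 counts stood behind each endothelial value. The exact Poisson 95% interval for H, the lowest, was 1.18 to 3.25 CPM, which covers counting error only.

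Sox18, known for its part in lymphatic development, was the least abundant by CPM. It was at 4.39 CPM in A, 4.29 in C, 8.71 in E and 5.49 in G, and at 0.802 CPM in B, 1.31 in D, 1.56 in F and 0.837 in H. As with Sox17, E was the highest library. The means were 5.72 ± 2.07 and 1.13 ± 0.372 CPM (SD, n = 4 each), with a log2 fold change of 2.34 (SE 0.36, edgeR adjusted p = 0.00992), which is 5.05-fold. The endothelial values rested on 7 to 15 counts each, and the Poisson 95% interval for H was 0.337 to 1.72 CPM. In bulk libraries such as these, fewer cells with a transcript and less of it per cell cannot be told apart.

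**Figure D1:**
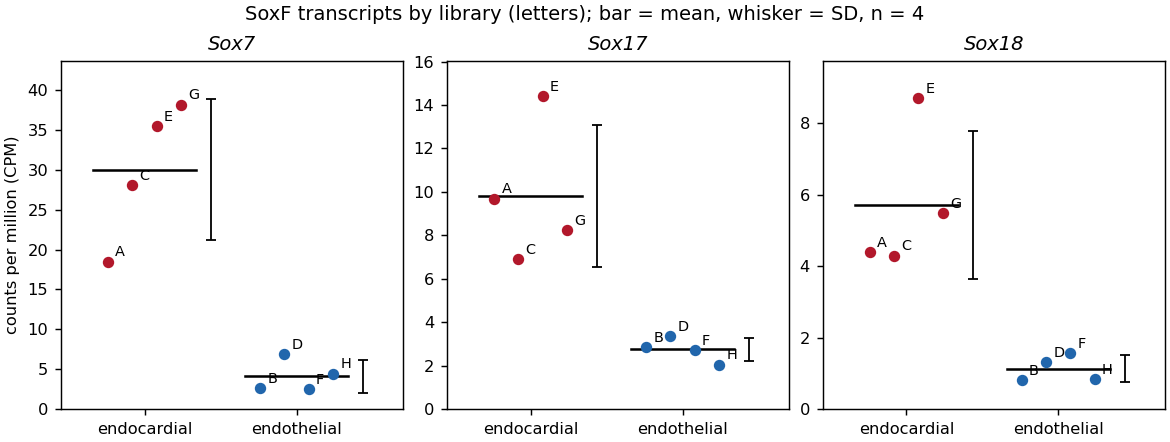
Level of each SoxF member in CPM (linear axis from 0) in the 4 endocardial (red) and 4 endothelial (blue) libraries, lettered as in the labels, with the group mean as a bar and its SD as a whisker. Every endocardial point lies above every endothelial point for each gene, and library A is the lowest endocardial library for Sox7 while E is the highest for Sox17 and Sox18.

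The 3 calls held in each of the 8 fits that leave out 1 library. The log2 fold change then ran from 2.72 to 3.26 for Sox7, from 1.58 to 1.96 for Sox17 and from 2.05 to 2.53 for Sox18. The highest adjusted p was 0.0179 for Sox7 and 0.0377 for Sox17, both without library E, and 0.0420 for Sox18, without D.

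Levels of different genes can be compared only per length, and here the CPM was divided by the length in kilobases of the longest complete coding transcript. On that scale Sox7 led in the endocardial libraries at 9.11 ± 2.68 CPM per kilobase, followed by Sox18 at 3.53 ± 1.28 and Sox17 at 3.03 ± 1.01 (SD, n = 4). Sox18 and Sox17 did not differ beyond their spread. In the endothelial libraries the values were 1.24 ± 0.621 for Sox7, 0.845 ± 0.169 for Sox17 and 0.697 ± 0.230 for Sox18, so that neighbours in this order differed by less than their spread. The place of Sox17 depends on which transcript was read. With its shortest complete coding transcript it was at 6.49 ± 2.16 CPM per kilobase in the endocardial libraries, above Sox18, and at 1.81 ± 0.361 in the endothelial libraries, above both others.

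With the longest transcripts, Sox7 made up 58.0 ± 8.29% of the summed SoxF level per kilobase in the endocardial and 43.2 ± 12.2% in the endothelial libraries (SD, n = 4 each). Sox17 made up 19.7 ± 5.46% and 31.3 ± 7.13%, and Sox18 22.4 ± 3.25% and 25.5 ± 8.19%. These shares describe the same values as the ratios that follow and were not tested.

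Whether the members differed between the groups to unlike extents was tested on the log2 ratio of 2 members' counts within a library, which needs no scaling between libraries. There were 3 such pairs, with two-sided exact permutation tests over 4 against 4 libraries that can give no p below 0.0286, adjusted over the 3 pairs. The ratio of Sox7 to Sox17 was 0.93 in A, 2.01 in C, 1.30 in E and 2.20 in G on the log2 scale. It was -0.14 in B, 1.02 in D, -0.11 in F and 1.10 in H. A lay below D and H, so the groups overlapped, and within the groups A and E lay below C and G, and B and F below D and H. The difference of the means was 1.14 (exact p = 0.0857, adjusted p = 0.129).

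The ratio of Sox7 to Sox18 averaged 2.39 ± 0.41 in the endocardial and 1.73 ± 0.79 in the endothelial libraries on the log2 scale (SD, n = 4 each; exact p = 0.171, adjusted p = 0.171). Sox17 to Sox18 averaged 0.78 ± 0.24 and 1.27 ± 0.41 (SD, n = 4 each; exact p = 0.0571, adjusted p = 0.129). None of the 3 ratios passed the threshold, which does not show that the members differed equally. The order Sox7, Sox18, Sox17 of the fold changes was therefore not resolved by these unpaired tests. The labels do not say whether libraries with neighbouring letters share a culture, and the tests did not pair them.

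The members were next set beside 20 pan-endothelial markers, a list without Sox genes that includes Cdh5, the adherens junction cadherin of endothelium, and Tie1, an endothelial receptor tyrosine kinase. Of this list 15 were called higher and 0 lower, with 5 not called, against 1.42% of all tested genes called higher. The list had a median log2 fold change of 1.79, against 0.01 over all tested genes. Its mean log2 CPM was 5.60 to 5.92 in the endocardial and 3.74 to 4.01 in the endothelial libraries. The 4 with the smallest p were Cdh5, with a log2 fold change of 3.04 (SE 0.13), Esam with 2.43 (SE 0.11), Ptprb with 3.21 (SE 0.17) and Rasip1 with 2.61 (SE 0.15). The 5 not called were Emcn at 2.58, Robo4 at 2.16, Ecscr at 1.08, Mcam at 0.32 and Tek at 0.15.

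Relative to that list mean, Sox7 was at -1.60 in A, -0.93 in C, -0.76 in E and -0.34 in G on the log2 scale. The endothelial values were -2.52 in B, -1.12 in D, -2.45 in F and -1.52 in H. The groups overlapped, since A lay below D and H, and the means differed by 0.996 (exact permutation p = 0.0857, adjusted over 3 members 0.257). For Sox17 the difference was -0.15 (exact permutation p = 0.457, adjusted p = 0.457) and for Sox18 it was 0.24 (exact permutation p = 0.371, adjusted p = 0.457). A difference of the members beyond that of endothelial markers at large was thus not shown. After adjustment over 3, a member that alone reached the smallest possible p could not have passed. With Pecam1 alone as the reference all 3 were relatively higher in the endocardial libraries, by 2.04 for Sox7, 0.89 for Sox17 and 1.28 for Sox18 (exact permutation p, adjusted, 0.0286 each, the smallest possible). Pecam1 itself had a log2 fold change of 0.82.

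**Figure D2:**
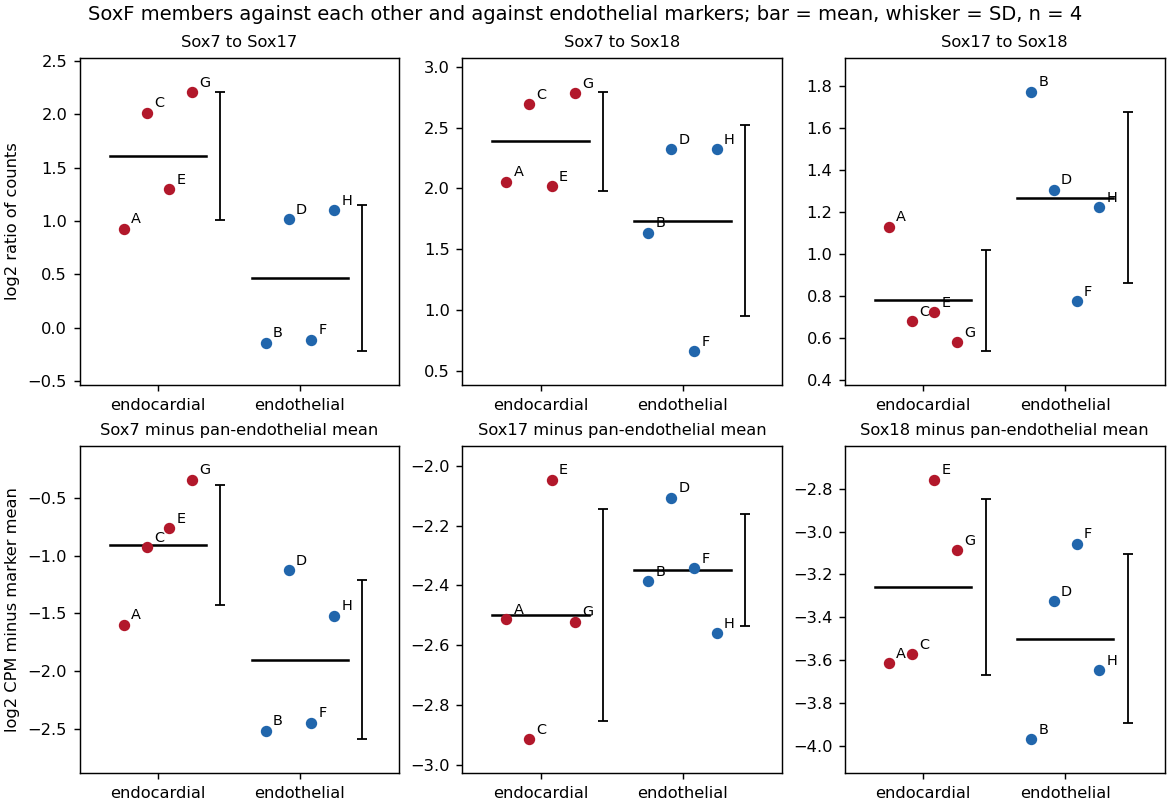
Top row, log2 ratio of the counts of 2 SoxF members within each library; bottom row, log2 CPM of each member minus the mean log2 CPM of 20 pan-endothelial markers. Red points are endocardial and blue points endothelial libraries, with the mean as a bar and the SD as a whisker, and the groups overlap in all 6 panels.

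Within the Sox family, the SoxF members were the 3 called higher, and no other Sox gene was. The family has 17 other members here, of which 12 were tested, 2 were called lower and 10 were not called. All 12 had a log2 fold change below 0, with a median of -0.52, whereas 7248 of all 13817 tested genes were above 0. The share of tested genes called lower was 1.16%. Sox14, Sox30, Sox10, Sox15 and Sry had too few counts to test.

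The 2 lower genes belong to the SoxB1 group, factors of pluripotent and neural progenitor cells. Sox3 was at 0.709 ± 0.167 against 3.55 ± 0.890 CPM (endocardial against endothelial, SD, n = 4 each), a log2 fold change of -2.28 (SE 0.34, edgeR adjusted p = 0.00727). Sox1 was at 1.38 ± 0.894 against 11.5 ± 5.99 CPM, with a log2 fold change of -3.01 (SE 0.60, edgeR adjusted p = 0.0310). Sox2, the third SoxB1 gene, had a log2 fold change of -2.19 (SE 0.54) but was not called (edgeR adjusted p = 0.0752). Sox3 was called in all 8 fits without 1 library and Sox1 in 2 of them. The number of other Sox genes called lower was 1 without A, C, D, F or G and 3 without B or H. DESeq2 called 5 lower, against 3.84% of all tested genes, and limma 6, against 4.09%. The pluripotency markers described further on were likewise lower, with a list median of -3.12. The level of that list was highest in F (6.10) and, among endocardial libraries, in E (3.60). Sox2 was likewise highest in F (111 CPM) and, among endocardial libraries, in E (27.2 CPM), as was Sox3 at 4.49 and 0.860 CPM. Sox1 was highest in F at 16.2 CPM but, among endocardial libraries, in C at 2.30 CPM. Among endothelial libraries Sox1 was lowest in H (3.23 CPM), where the list level was 4.53, above B (3.84) and D (4.16). The part of pluripotent cells in the Sox1, Sox2 and Sox3 values was not tested. For 6 of the 12 other Sox genes every endocardial library lay below every endothelial one, which held for 5.33% of all tested genes.

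Sox21, a SoxB2 gene, was at 1.43 ± 0.668 against 5.98 ± 2.99 CPM (SD, n = 4 each), and its log2 fold change of -2.04 (SE 0.47) did not pass (edgeR adjusted p = 0.0551). The SoxC genes, broadly expressed in embryonic progenitors, had log2 fold changes of -0.05 (Sox4), -0.36 (Sox11) and -0.17 (Sox12). The SoxD genes Sox5, Sox6 and Sox13 had -0.46, -0.31 and -0.54, and the SoxE genes Sox8 and Sox9 had -0.82 and -0.50. None of these was called. SoxF counts made up 6.33% of all Sox counts in A, 7.23% in C, 10.5% in E and 9.25% in G. In the endothelial libraries the share was 0.977% in B, 1.63% in D, 0.922% in F and 1.20% in H. These shares are not corrected for length, and they move both with the SoxF and with the SoxB genes.

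**Figure D3:**
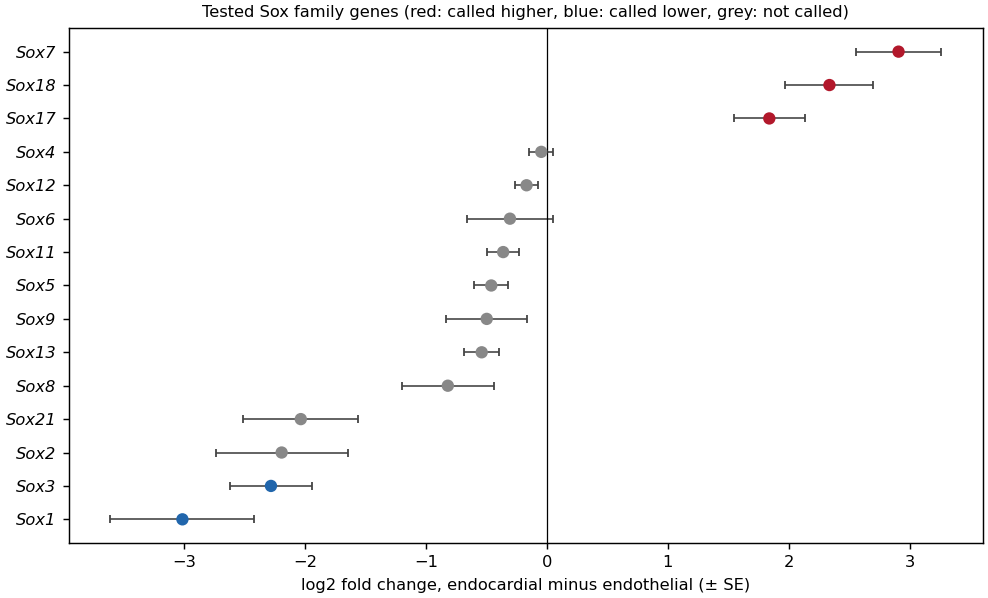
Log2 fold change (endocardial minus endothelial, ± SE) of the 15 tested Sox genes, in order of size. Sox7, Sox18 and Sox17 (red) were called higher, Sox3 and Sox1 (blue) lower, and the 10 grey genes were not called, all of them below 0.

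A further list holds genes reported elsewhere as SoxF targets in endothelium. Of 9 such genes 8 were tested, 3 were called higher, 0 lower and 5 not, against 1.42% of all tested genes called higher. All 8 had a log2 fold change above 0, with a median of 1.18, where 7248 of all 13817 tested genes were above 0. Cdh5, Cldn5 and Robo4 are also among the pan-endothelial markers, so 2 of the 3 called targets are on both lists. Cdh5 was called in all 8 fits without 1 library. Cldn5, a tight junction claudin, was at 11.1 ± 4.64 against 3.24 ± 0.998 CPM (SD, n = 4 each), a log2 fold change of 1.77 (SE 0.37, edgeR adjusted p = 0.0347). Prox1, the lymphatic factor placed downstream of Sox18, was at 32.6 ± 2.49 against 21.8 ± 2.50 CPM, a log2 fold change of 0.58 (SE 0.12, edgeR adjusted p = 0.0348). Cldn5 kept its call in 2 and Prox1 in 1 of the 8 fits without 1 library. The number of these targets called was 1 without A, B, C, E or H, and 5 by both DESeq2 and limma, which called 2.39% and 2.97% of all tested genes higher. Whole-table calls higher were 196 in the main fit, 117 without A, 230 without B, 110 without C, 99 without E and 143 without H.

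Dll4, the arterial Notch ligand, had a log2 fold change of 1.89 (SE 0.47, edgeR adjusted p = 0.0704) and did not pass, although its groups did not overlap. The same held for Robo4, a guidance receptor gene of endothelium, at 2.16 (SE 0.61, edgeR adjusted p = 0.111). Notch1 was at 0.36, the adhesion molecule Vcam1 at 0.29 and the endothelin-converting enzyme gene Ece1 at 0.11, none of them called. Mmp7 had no count in any library.

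No tested gene of the list of SoxF partners and the beta-catenin and TCF pathway was called, 0 of 8 at an adjusted p below 0.05 by edgeR. At an unadjusted p below 0.05 there were 3, against 14.6% of all tested genes, and DESeq2, limma and the edgeR fit without B called 1 each. Mef2c, a known partner of Sox18, had a log2 fold change of 1.08 (SE 0.26, edgeR adjusted p = 0.0653), and its groups did not overlap. Rbpj, the DNA-binding factor of the Notch pathway, was at -0.24 and Ctnnb1, which codes for beta-catenin, at 0.04. Lef1 was at 0.37, Tcf7l2 at -0.31, Tcf7l1 at -0.17 and Tcf7 at 0.08. The list median was 0.06.

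Other transcription factors of endothelium were read beside the SoxF members. Of 25 tested, 11 were called higher, 0 lower and 14 were not called, with a median of 1.12. The share of all tested genes called higher was 1.42%. The ETS factor Erg, which maintains endothelial identity, had the smallest p, with 32.3 ± 3.94 against 4.59 ± 0.763 CPM (SD, n = 4 each) and a log2 fold change of 2.82 (SE 0.17). Ets2 was at 1.58, the endocardial factor Nfatc1 at 2.09 and Hhex at 22.4 against 5.58 CPM. The other factors called were Fli1, Lmo2, Tal1, Elk3, Gata2, Bcl6b and Ets1, which were named after their values were seen. Below 0 and not called were Nr2f2, a venous factor, at -0.94 and the flow-responsive factors Klf2 and Klf4 at -0.12 each.

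Lists of vessel types held both called and uncalled members, where 1.42% of all tested genes were called higher and 1.16% lower. Of 13 tested arterial genes 3 were called higher, namely Notch4 at 1.75, the connexin gene Gja4 at 1.92 and the BMP receptor gene Acvrl1 at 1.08, and the median was 0.36. Among 10 genes of veins and lymphatics, 5 were called higher, with Flt4, the VEGF-C receptor, at 2.06, Stab1 at 2.03 and Lyve1, a hyaluronan receptor, at 2.60, and the median was 0.39. In the same list Nr2f2 was at -0.94, Pdpn, a lymphatic membrane glycoprotein gene, at -0.96 with every endocardial library below every endothelial one, and Nrp2 at -0.20, none of them called. Of 13 endocardial genes 4 were called higher, Plxnd1 at 1.71, Hapln1 at 2.14, Nfatc1 at 2.09 and Nrg1 at 1.05, with a median of 0.41. EdgeR called no member of these lists lower, and DESeq2 called 1, among the genes of veins and lymphatics. The arterial count was 1 without A, C or E and 5 by DESeq2 and limma, and that of veins and lymphatics was 2 without A, C or E, 3 without D, F or H. In these fits without 1 library, 99 (without D or E) to 165 (without F) genes were called higher over the whole table, against 196 in the main fit.

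**Figure D4:**
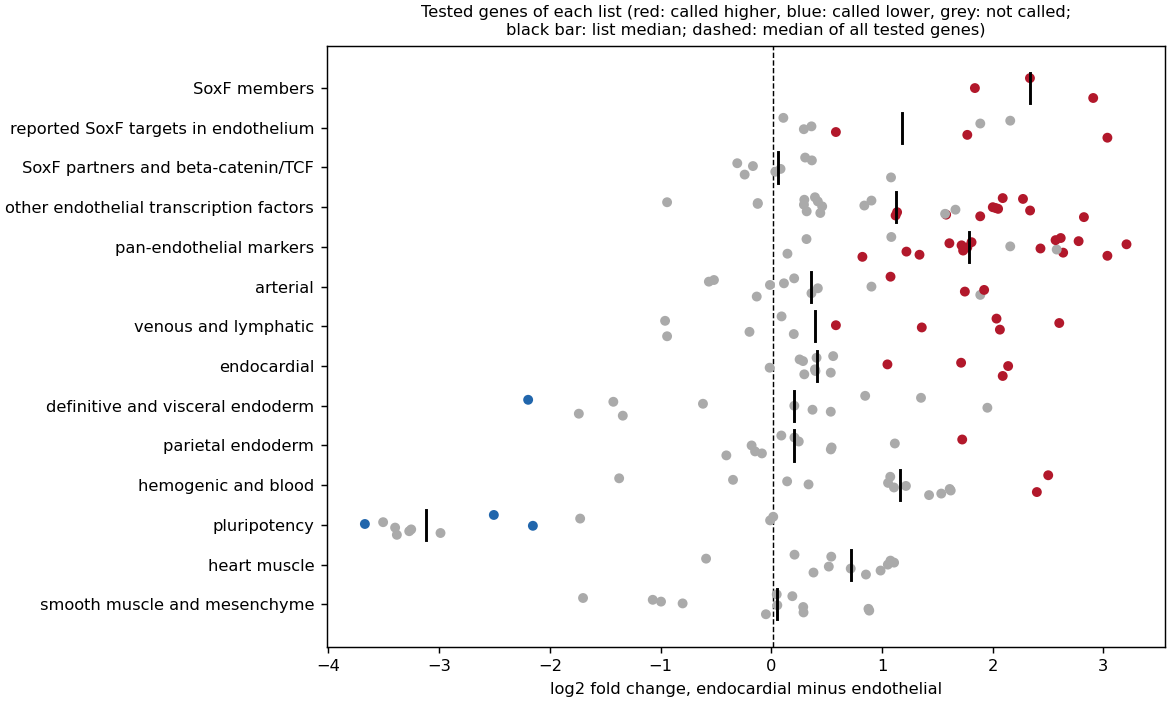
Log2 fold change of every tested gene of each list (red, called higher; blue, called lower; grey, not called), with the list median as a black bar and the median of all tested genes as a dashed line. The 3 SoxF members lie among the called pan-endothelial markers and endothelial transcription factors.

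Because Sox17 and Sox7 are also genes of endoderm, endoderm markers were read in the same libraries. Of 20 definitive and visceral endoderm genes 11 had enough counts to test, 0 were called higher and 1, Epcam, lower at -2.20. The median was 0.21. The mean log2 CPM of this list was 2.14 to 3.39 in the endocardial and 2.86 to 3.15 in the endothelial libraries, so the groups overlapped. Foxa2, the defining endoderm factor, was at 2.25 ± 0.980 against 7.59 ± 5.48 CPM (log2 fold change -1.74, not called). Afp was at 6.36 ± 8.19 against 1.59 ± 1.18 CPM (log2 fold change 1.95, not called), with 18.6 CPM in A, and Ttr was too low to test. Trf was at 1.35 and Rbp4 at 0.85, neither of them called. In all, 6 of the 11 had a log2 fold change above 0. Of 11 parietal endoderm genes 1 was called higher, Fgf3 at 1.72, and the median was 0.21. The shares of all tested genes called higher and lower were 1.42% and 1.16%. With 1 library left out, Epcam was called in 2 of 8 fits (without B, without F) and Fgf3 in 3 (without B, F or G). Limma called 3 parietal endoderm genes higher and DESeq2 1, and of the definitive and visceral endoderm genes DESeq2 called 2 lower and limma 1.

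Markers of blood and of pluripotent cells were read in the same way. Of 14 tested hemogenic and blood genes 2 were called higher, Ikzf1 at 2.50 and Gfi1b at 2.40, against 1.42% of all tested genes. The list median was 1.16, and Runx1 was at 1.42 without a call. Gata1 and Ptprc, which define blood cells, were at 1.54 and 1.22, also not called. The embryonic globin genes Hba-x and Hbb-y were at -0.35 and -1.37 and Hbb-bh1 at 0.14, none of them called. Of the 14 genes, 12 had a log2 fold change above 0, as had 7248 of all 13817 tested genes. The list level was 5.68 in A, 4.09 in C, 4.61 in E and 4.10 in G, and 4.90 in B, 2.87 in D, 3.21 in F and 2.52 in H, so that the groups overlapped and A and B were the highest of their groups. Sox7 was at its lowest endocardial level in A, and Sox17 in C (6.91 CPM). Sox18 was at 4.29 CPM in C and 4.39 in A. Their Poisson 95% intervals, 3.08 to 5.82 and 3.04 to 6.13 CPM, overlapped, so C and A were not ranked. Among endothelial libraries Sox7 was lowest in F (2.50 CPM) and not in B (2.59 CPM). Of 12 pluripotency genes 3 were called lower, L1td1 at -2.51, Tdgf1 at -2.15 and Fgf4 at -3.67, against 1.16% of all tested genes. The pluripotency median was -3.12. That list was at 1.68 to 3.60 in the endocardial and 3.84 to 6.10 in the endothelial libraries, highest in F. Pou5f1, which defines pluripotent cells, was at 4.07 ± 4.96 against 43.2 ± 34.9 CPM (not called). Without F, the log2 fold changes of Sox7, Sox17 and Sox18 were 2.72, 1.82 and 2.53. Leaving out F did not remove the pluripotency difference, since the list median was then -1.90, with 2 called lower. The blood count was 0 without A, C, D, E or G, 1 without F or H and 5 without B, and 5 by DESeq2 and limma. Genes called higher over the whole table were 99 (without D or E) to 118 (without G) in the fits with 0, and 230 without B. DESeq2 and limma called 2.39% and 2.97% of all tested genes higher. The pluripotency count was 0 without A, C or G, 1 without H, and 7 by DESeq2 and 9 by limma. Genes called lower over the whole table were 72 without A, 47 without C, 35 without G and 183 without H. DESeq2 and limma called 3.84% and 4.09% of all tested genes lower. The part of these cells in the SoxF differences was not tested.

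Of 11 heart muscle genes and of 12 smooth muscle and mesenchyme genes edgeR called 0 each, with medians of 0.72 and 0.05. At an unadjusted p below 0.05 there were 5 and 2, and DESeq2 and limma each called 1 and 0. Tnnt2, cardiac troponin T, had a log2 fold change of 0.85 and Myh6 of 0.72.

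**Figure D5:**
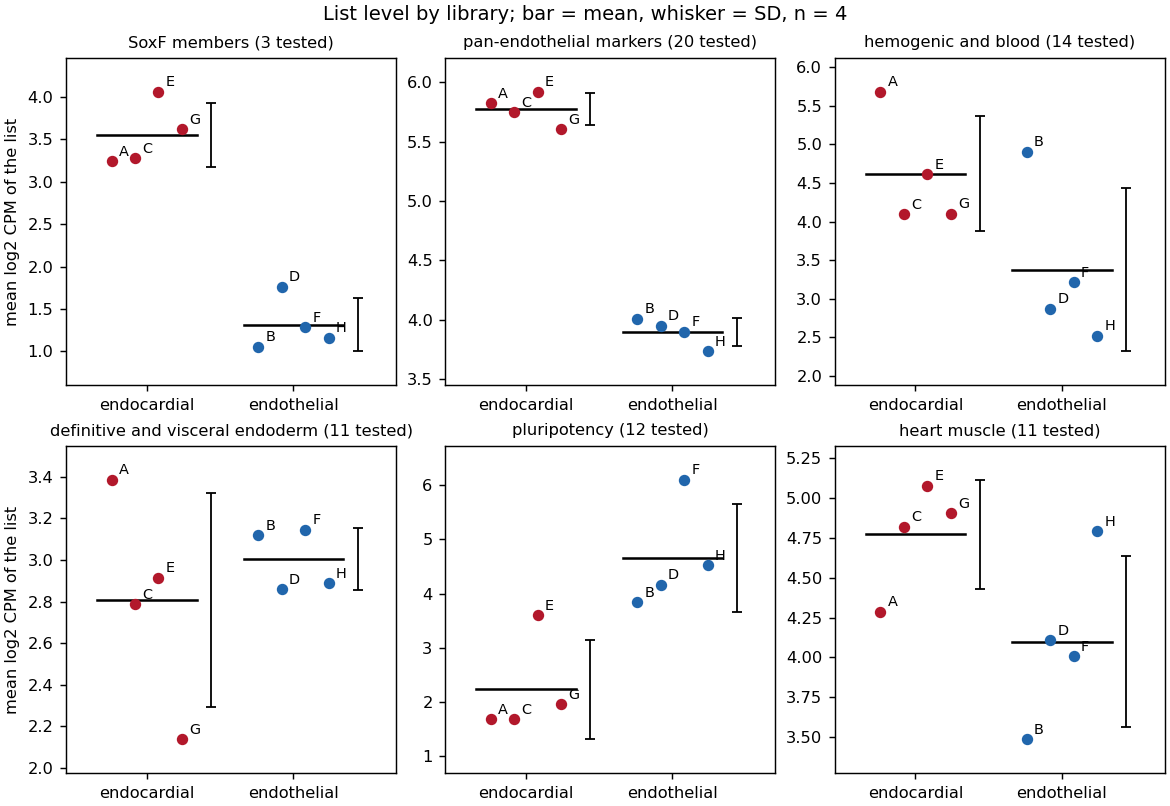
Mean log2 CPM of the tested genes of 6 lists in each library (red, endocardial; blue, endothelial), with the group mean as a bar and the SD as a whisker. The SoxF, pan-endothelial and pluripotency levels do not overlap between the groups, the last being higher in the endothelial libraries, whereas the blood, endoderm and heart muscle levels overlap.

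The genes whose profile over the 8 libraries was most like that of each member were listed by the root mean square difference of log2 CPM after each gene's mean was subtracted, among tested genes with a mean of at least 5 CPM. This is a description, since libraries of 2 unlike groups make many profiles alike. Nearest to Sox7 were Erg (0.38), Nos3, the endothelial nitric oxide synthase gene (0.41), Rasip1, a lumen formation gene (0.45), Myzap (0.45) and Gad2, which makes the transmitter GABA (0.51). Nearest to Sox17 were Ets2 (0.25), Egfl7, a secreted endothelial protein gene (0.26), She (0.26), Cd34, an endothelial and progenitor sialomucin gene (0.28) and Gng11 (0.29). Nearest to Sox18 were Myzap (0.32), Sox17 itself (0.33), Afap1l1 (0.34), Gimap6 (0.34) and Adora2a, an adenosine receptor gene (0.35). Sox7 differed from Sox18 by 0.64 and from Sox17 by 0.79 on this measure, against 0.33 between Sox17 and Sox18.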

How the data were processed

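The deposited table holds estimated counts per gene symbol in 8 libraries. Salmon, a transcript quantifier, DESeq2 and build mm10 are named per the submitters' processing notes, with no version or role. The sources used here name no transcript set, summing or filter. The deposited estimated counts were whole numbers, and rounding them changed 0 values. Genes were filtered with filterByExpr of edgeR 4.0.16 in R 4.3.3 (10 counts at median depth in enough libraries for 1 group, and 15 in total), normalised with TMM factors and compared by the robust quasi-likelihood F-test with all 8 libraries and no covariate, endocardial minus endothelial, adjusted by Benjamini-Hochberg over 13817 genes. Each SE was taken from the fold change and its F statistic. List levels are mean log2 CPM with a prior count of 2, and pair ratios used a pseudocount of 0.5. Locations and transcript comparisons are from GENCODE M21 (GRCm38, the assembly of mm10), which held 13628 of the tested symbols. The members and lists were chosen with earlier results of these data known. Named are the 3 members, tested Sox genes, up to 4 genes per list with the smallest p, defining markers, the 5 genes most alike per member and 2 protein-coding neighbours per side. Other list members were named for their known role or their result after their values were seen. Alternatives were DESeq2 1.42.0, limma 3.58.1 (voom, sample quality weights), other scalings, filters and spread estimates, leaving out each library, and 0.01 as threshold. The edgeR, DESeq2 and limma fits and the permutation test were tested on simulated data. An aligned coding stretch of the members is not reported here.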

Additional observations from a re-analysis of the deposited data

How the results depend on the processing

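Sox7 and Sox18 kept their direction and their call in all 16 alternatives each, with log2 fold changes from 2.54 to 3.26 and from 2.03 to 2.53. Sox17 did so in 15 of 16 (1.42 to 1.96), and at a threshold of 0.01 its difference of 1.84 was not called (adjusted p = 0.0109). With Pecam1 alone in place of the list, the level relative to endothelial markers passed the threshold for Sox7 (2.04), Sox18 (1.28) and Sox17 (0.89). That of Sox17 also changed sign and became positive. Pecam1 differed less between the groups than the list did. The other alternatives left these relative levels and the 3 pair ratios without a call and with the same sign. The number of genes called over the whole table was 356 and changed most: 860 by DESeq2, 975 by limma, 104 at the threshold of 0.01, and 135 (without E) to 457 (without B) when 1 library was left out. Leaving out A gave 189, C 157, D 138 and G 153. DESeq2 and limma called more genes lower than higher, at 530 against 330 and 565 against 410. With 3 against 4 libraries there are 35 assignments, so exact tests can again give no p below 0.0286. A pair or member that alone reached that p would again not pass after adjustment over 3. Low counts limit Sox17 and Sox18 in the endothelial libraries most. No paired analysis was run because the labels pair no libraries, and whether neighbouring letters share a culture is not given there. Of their groups, A and B were highest in the blood list and E and F in the pluripotency list. The unpaired tests of the ratios and relative levels do not speak to differences within such neighbours.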

Other observations

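Of the 12 nearest protein-coding neighbours of the SoxF members, 2 on each side of each, 8 were tested. EdgeR, DESeq2 and limma called 0 of them, and 0 had an unadjusted edgeR p below 0.05. Beside Sox7, Pinx1, which lies 23814 bases away, had a log2 fold change of 0.12 (SE 0.16) and Xkr6 of 0.13 (SE 0.46). Beside Sox17, Mrpl15 was at 0.19, Lypla1 at -0.06 and Xkr4 at -0.90 (SE 0.41, edgeR adjusted p = 0.356). Beside Sox18, Tcea2, which lies 8670 bases away, was at -0.07, Rgs19 at 0.09 and Prpf6 at 0.07.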
